A study of Mus musculus with 12 samples.

Results

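Axon guidance ligands and receptors were followed across 2 genotypes of mouse medulloblastoma (MB) and the normal cells from which this tumor arises. They were the semaphorins of classes 3 to 7, the plexins and neuropilins that receive them, the ephrins and their Eph receptors, Slit1 to Slit3, Robo1 to Robo3, netrins 1 to 5 and the netrin receptor Dcc. Members were chosen by gene symbol, with Ephb4 left out. No measured value entered this rule, but the rule was set with earlier results of these data known. Of 19057 genes with a probe on the array, 59 were members, covered by 152 of 45281 probes, and where a gene had several probes the brightest on average stands for it. No probe carried the symbol of Sema5b, Ephb2, Robo3 or Ntn1, and these genes were not analysed here.

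RNA was hybridised to Illumina MouseWG-6 v2.0 BeadChips, with 1 array for each of 12 samples. Of these, 4 were NdpKO;Ptch+/- MBs from males, labelled as of mixed strain, which carried 1 disrupted copy of the Shh receptor gene Ptch and lacked the secreted ligand Norrin, because the X-linked Ndp locus was broken by a lacZ cassette in all cells of the animal. The 4 Ptch+/- MBs, labelled C57Bl/6, carried the same Ptch allele with Ndp intact. The 4 samples of WT GNPs, also labelled C57Bl/6, were granule neuron progenitors purified from the cerebella of postnatal day 6 wild-type pups on a Percoll gradient and by pre-plating. The tumors were whole tissue and the GNPs a purified fraction, tumor ages were not given in the sources used here, and the p-values rest on the spread between samples. The study describes the GNP samples as separate animals, and the tumors carry separate identifiers, though no label says that each came from a different mouse. The methods state that mutants were set against controls of the same breeding cohort, while the labels give the tumor genotypes different strains, and that controls could be of either sex. Genotype cannot be told apart from labelled strain or from sex in the comparison of the tumors. The study reports a shorter mean tumor latency in NdpKO;Ptch+/- mice than in Ptch+/- littermates. The ages of these tumors being unknown, genotype cannot be told apart from age either. In whole tissue, fewer cells of a type and less RNA per cell cannot be told apart.

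Guidance molecules steer growing axons and migrating cells by attraction or repulsion. Class 3 semaphorins are secreted and act through neuropilins and plexins, ephrins signal from cell to cell through Eph receptor kinases, Slits repel through Robo receptors, and netrins attract through Dcc. In the cerebellum the same systems guide granule neurons as they leave the external granule layer, and several of them, among them Sema3e with its receptor Plxnd1 and ephrin-B2, also shape blood vessels.

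Signals are normalized log2 values, and a value under 4.5 was taken as background. By this limit 36 of the 59 members were above background on 1 or more arrays and 23 were under it on all 12, where their highest signal was 4.46. The members under background on every array were Sema3b, Sema3c, Sema3d, Sema3g, Sema4c, Sema4d, Nrp2, Plxna1, Plxna3, Plxna4, Efna2, Efna3, Efnb3, Epha1, Epha4, Epha6, Epha8, Epha10, Ephb3, Ephb6, Slit1, Slit3 and Ntn5. For these genes the probes gave a bound and not a level. Each array had 31.8% to 32.5% of its probes above the limit.

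**Figure D1:**
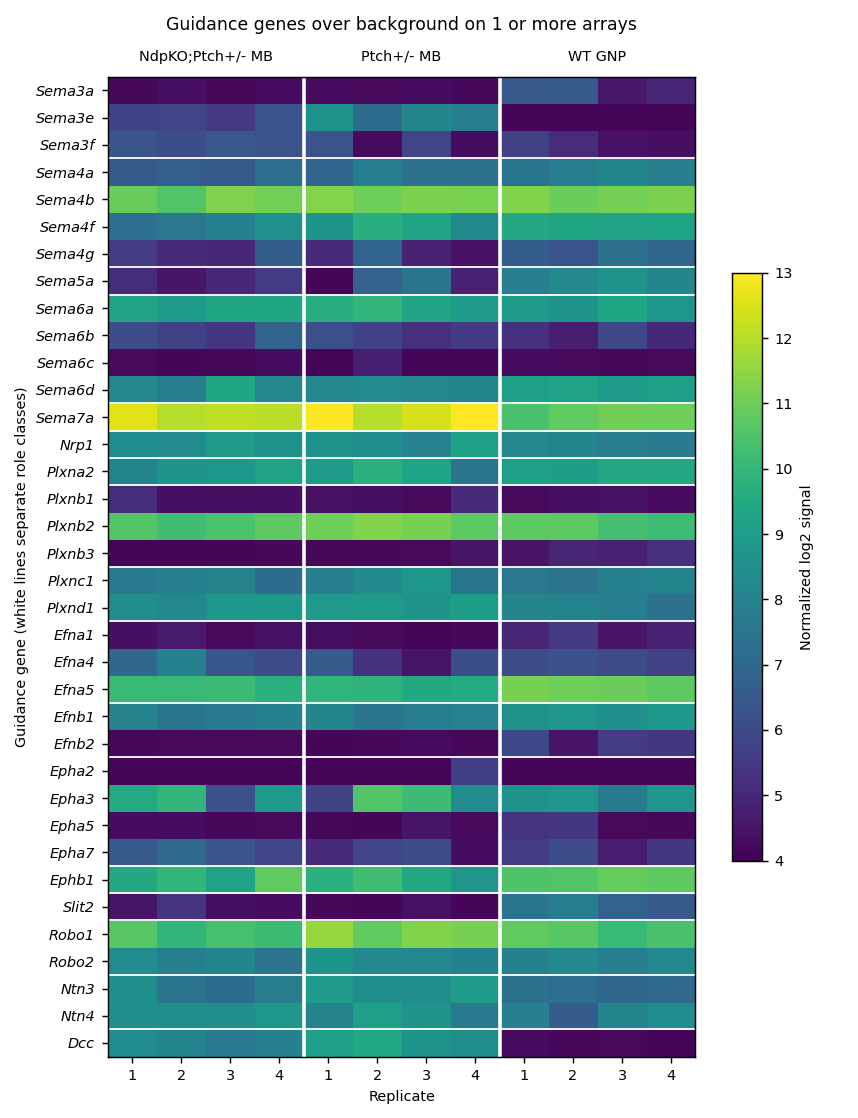
Normalized log2 signal (colour) of the 36 guidance genes above background on 1 or more arrays, with 1 column per array and the genes ordered by role. Dcc and Sema3e are at background in all 4 WT GNP arrays and above it in all 8 tumors, while Slit2 and Sema3a are above background in all 4 WT GNP arrays.

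After Dcc, the members that rose most in both tumor genotypes against GNPs were Sema3e and Sema7a, and those that fell most were Sema5a and Slit2. These 4 are shown with their promoters, so that the sequence next to the start of each gene stands beside its values. Each is 300 bases of the plus strand around the start of the gene, from RefSeq on build GRCm38.p6. Capitals mark every match on either strand to the GC box GGGCGG or the TATA box TATAAA. The GLI motif GACCACCCA, the site of the transcription factors at the end of the Shh pathway, was also searched and had no match in the 4 sequences. The Sema3e promoter lies at chr5:14025026-14025325, that of Sema7a at chr9:57939862-57940161, that of Sema5a at chr15:32244563-32244862 and that of Slit2 at chr5:47982905-47983204.
Sema3e promoter: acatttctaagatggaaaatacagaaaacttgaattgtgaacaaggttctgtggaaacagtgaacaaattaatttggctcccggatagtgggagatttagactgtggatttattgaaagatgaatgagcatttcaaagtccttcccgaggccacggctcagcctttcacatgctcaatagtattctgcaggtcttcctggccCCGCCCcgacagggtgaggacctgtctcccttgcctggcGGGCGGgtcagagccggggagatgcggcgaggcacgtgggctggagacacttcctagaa
Sema7a promoter: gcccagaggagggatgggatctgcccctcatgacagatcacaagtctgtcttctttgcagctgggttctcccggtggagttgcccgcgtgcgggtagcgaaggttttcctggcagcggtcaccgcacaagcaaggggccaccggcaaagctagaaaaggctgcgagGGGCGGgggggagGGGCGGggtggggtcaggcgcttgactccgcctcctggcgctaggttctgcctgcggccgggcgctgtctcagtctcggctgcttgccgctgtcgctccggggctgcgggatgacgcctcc
Sema5a promoter: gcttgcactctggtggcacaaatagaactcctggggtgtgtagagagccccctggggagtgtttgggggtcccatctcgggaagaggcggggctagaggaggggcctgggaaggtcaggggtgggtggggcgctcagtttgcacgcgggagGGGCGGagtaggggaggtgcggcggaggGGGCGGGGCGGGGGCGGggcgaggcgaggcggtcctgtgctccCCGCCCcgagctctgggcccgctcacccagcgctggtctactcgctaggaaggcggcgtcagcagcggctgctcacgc
Slit2 promoter: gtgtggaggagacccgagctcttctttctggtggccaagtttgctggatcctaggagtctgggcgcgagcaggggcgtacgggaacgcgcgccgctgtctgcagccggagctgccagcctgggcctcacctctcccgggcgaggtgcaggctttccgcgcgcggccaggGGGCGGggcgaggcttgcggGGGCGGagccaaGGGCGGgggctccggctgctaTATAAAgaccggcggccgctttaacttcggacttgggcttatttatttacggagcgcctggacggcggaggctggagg

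The GC box matched 2 times in the promoter of Sema3e, 2 times in that of Sema7a, 5 times in that of Sema5a, where matches overlap, and 3 times in that of Slit2. Slit2 had in addition 1 TATA box. Of 32851 RefSeq promoters of this length, 35.7% held the GC box, 13.6% the TATA box and 0.253% the GLI motif, counted on both strands. Of 67 promoters of 51 member genes, 73.1% held the GC box, 2.99% the TATA box and 0 the GLI motif.

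The first comparison asked how loss of Norrin changed the guidance genes of the tumor. In NdpKO;Ptch+/- MBs the secreted semaphorin Sema3e was 4.12-fold lower than in Ptch+/- MBs, and no other member passed. Of the 59 members 0 were higher, where 0.808% of all genes were, and 1 was lower, where 1.26% of all genes were (limma, adjusted p under 0.05, Benjamini-Hochberg over all probes). At an unadjusted p under 0.05, 4 members were higher, where 8.52% of all genes were, and 9 were lower, where 7.91% of all genes were, and of the 9 the receptors Epha1 and Epha8 were at background on all arrays. Over the 59 members the median log2 fold change was -0.0035, beside 0.00070 for all genes. Both medians include genes at background on all arrays, and over the 36 members above background the median was -0.095. No median over all genes above background is given here to set beside it.

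Sema3e, a secreted semaphorin that repels axons and endothelial cells, had log2 signals of 5.83, 5.87, 5.54 and 6.35 in the 4 NdpKO;Ptch+/- MBs. In the Ptch+/- MBs the signals were 8.64, 7.18, 8.12 and 7.84. The WT GNPs were all between 4.12 and 4.14, at background. The 3 groups did not overlap, and every NdpKO;Ptch+/- MB lay between the GNPs and the lowest Ptch+/- MB. The log2 fold change between the tumors was -2.04 (standard error 0.27, limma adjusted p = 0.00959). The call is lost when the 8 tumor arrays are fitted without the GNPs (adjusted p = 0.102), and a dimmer Sema3e probe, above background in only 2 Ptch+/- MBs and in no other sample, did not pass (adjusted p = 0.451). Its other 2 probes were at background on all 12 arrays.

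The receptor that binds Sema3e directly, Plxnd1, stood at 8.45, 8.22, 8.75 and 8.79 in NdpKO;Ptch+/- MBs. In Ptch+/- MBs it stood at 8.87, 8.89, 8.65 and 8.995. The tumors overlapped, and the difference of -0.30 (standard error 0.17) did not pass (limma adjusted p = 0.536). Plxnd1 is abundant in endothelial cells, and 15 endothelial markers were read beside it. Of these, Emcn was higher in NdpKO;Ptch+/- MBs and none was lower, and the mean log2 signal of the 11 above background ran from 6.99 to 7.83 in NdpKO;Ptch+/- MBs and from 6.56 to 7.31 in Ptch+/- MBs. The pan-endothelial Pecam1 had means of 5.09 and 4.40, and Kdr, Tie1, Sox17 and Erg were under background on all arrays. Markers of 2 other cell types separated the tumor genotypes without overlap. The mean log2 signal of the 6 mural cell markers above background, of 10 with a probe, was 7.02 to 7.57 in NdpKO;Ptch+/- MBs and 6.07 to 6.70 in Ptch+/- MBs, with Vtn higher and none lower, and Pdgfrb, Tagln, Myh11 and Des under background on all arrays. That of the 8 progenitor markers above background, of 11, was 11.35 to 11.51 in NdpKO;Ptch+/- MBs and 11.53 to 11.73 in Ptch+/- MBs, with Ccnd2 lower and none higher. The part of these cell types in the values of Sema3e, Plxnd1, Dcc and Robo1 was not tested.

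Besides Sema3e, the receptors Dcc and Robo1 were lower in NdpKO;Ptch+/- MBs with no overlap between the tumor groups, but did not pass. These 3 were 8.33% of the 36 members above background, and 7.59% of all genes above background were lower without overlap. Dcc had signals of 8.38, 8.05, 7.67 and 7.91 in NdpKO;Ptch+/- MBs. In Ptch+/- MBs they were 9.08, 9.39, 8.65 and 8.48, a log2 difference of -0.90 (standard error 0.20, limma adjusted p = 0.0712). Robo1 had signals of 10.67, 9.91, 10.40 and 10.18 in NdpKO;Ptch+/- MBs. In Ptch+/- MBs they were 11.57, 10.80, 11.30 and 11.16, a log2 difference of -0.92 (standard error 0.22, adjusted p = 0.0915). In both receptors the highest array of NdpKO;Ptch+/- MBs lay just under the lowest of Ptch+/- MBs. The netrin Ntn3 differed by -0.92 (standard error 0.25, adjusted p = 0.134), with the tumors overlapping through NdpKO;Ptch+/- replicate 1, at 8.49. When dim probes were left out of the fit, Dcc, Robo1 and Ntn3 passed, with adjusted p of 0.0224, 0.0284 and 0.0447. Over 18 alternative limma fits, this among them, Dcc passed in 3, Robo1 in 2 and Ntn3 in 2. Their adjusted p reached 0.272, 0.214 and 0.345.

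The remaining members did not pass between the tumors. Among the semaphorins, Sema4f, a transmembrane semaphorin, had a difference of -1.12 (standard error 0.33, limma adjusted p = 0.157). Plxnb2, a plexin that granule neuron progenitors use during migration, had a difference of -0.53 (adjusted p = 0.196). On the higher side at an unadjusted p under 0.05 were the ligand Efna4, at 1.23, the secreted semaphorin Sema3f, at 1.16, the receptor Epha7, at 1.14, and the ligand Efna5, at 0.31, with adjusted p from 0.29 to 0.363. Sema3f was above background in all 4 NdpKO;Ptch+/- MBs, at 6.14 to 6.50, and in 2 of the 4 Ptch+/- MBs, at 6.30 and 5.87. Neuropilin 1, the co-receptor of class 3 semaphorins and of VEGF, differed by 0.04 (standard error 0.23).

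**Figure D2:**
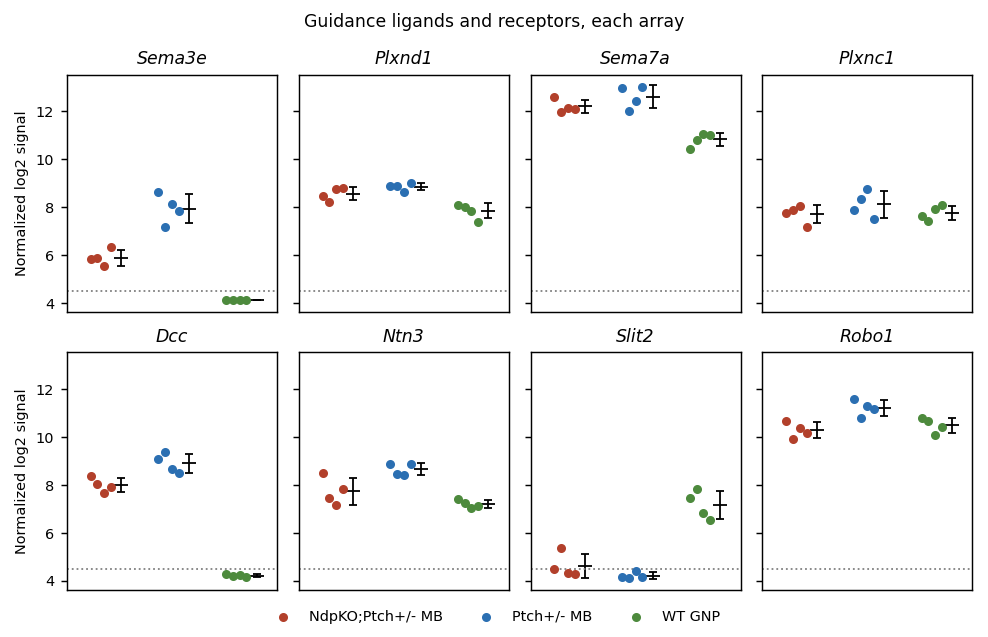
Normalized log2 signal of ligands and receptors that act together (Sema3e and Plxnd1, Sema7a and Plxnc1, Ntn3 and Dcc, Slit2 and Robo1), 1 point per array, with the mean and SD of each group beside it and the background limit dotted. Sema3e, Dcc and Robo1 are lower in every NdpKO;Ptch+/- MB than in any Ptch+/- MB, and Dcc and Sema3e are under the limit in all 4 WT GNP arrays.

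The second comparison set each tumor against normal GNPs. Both tumor comparisons used the same 4 GNP arrays, so their values are not independent and are given side by side. Sema3e, Sema7a, Plxnd1 and Dcc rose in both tumors, and Sema5a, Plxnb3, Efna5, Efnb1, Efnb2 and Slit2 fell in both. In Ptch+/- MBs 6 of the 59 members were higher than in GNPs, where 10.3% of all genes were, and 9 were lower, where 10.9% of all genes were. In NdpKO;Ptch+/- MBs 4 were higher, where 7.69% of all genes were, and 9 were lower, where 7.98% of all genes were. The higher members were 10.2% and 6.78% of the 59, and the lower members 15.3% in both tumors. The median log2 fold changes were 0.0011 and -0.0049, beside -0.00049 and 0.00043 for all genes. Over the 36 members above background they were 0.062 and -0.084, again with no value for all genes above background beside them. One of the lower members in both counts, Epha6, was under background on all 12 arrays and is given no fold.

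Of the netrin system, the receptor Dcc showed the largest difference from GNPs among the members. Its GNP signals of 4.28, 4.21, 4.24 and 4.17 were at background, while all 8 tumors lay between 7.67 and 9.39. Dcc was at least 21.1-fold higher in Ptch+/- MBs (limma adjusted p = 5.03e-07) and at least 11.3-fold higher in NdpKO;Ptch+/- MBs (adjusted p = 2.66e-06), taking the background limit as the GNP level. A further Dcc probe rose at least 7.60-fold and 4.72-fold, while its other 2 probes, both to the RefSeq transcript, were at background on all 12 arrays. The ligand Ntn3 stood at 7.40, 7.27, 7.03 and 7.11 in GNPs and at 8.87, 8.45, 8.44 and 8.89 in Ptch+/- MBs, which did not overlap. It rose 2.75-fold in Ptch+/- MBs (adjusted p = 0.00356), and in NdpKO;Ptch+/- MBs its log2 difference of 0.53 did not pass (adjusted p = 0.231). Ntn4, a basement membrane netrin, did not pass in either tumor (adjusted p = 0.366 and 0.267).

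Of the semaphorins, Sema3e was at least 10.9-fold higher in Ptch+/- MBs than in GNPs (limma adjusted p = 1.69e-05) and at least 2.64-fold higher in NdpKO;Ptch+/- MBs (adjusted p = 0.00253). Sema7a, a membrane-anchored semaphorin that promotes axon growth, was bright in every sample. It stood at 10.43, 10.82, 11.03 and 11.03 in GNPs, at 12.96, 12.005, 12.41 and 13.02 in Ptch+/- MBs and at 12.59, 11.98, 12.13 and 12.08 in NdpKO;Ptch+/- MBs. All tumors were above all GNPs, and Sema7a rose 3.42-fold (adjusted p = 0.000957) and 2.59-fold (adjusted p = 0.0054). A dimmer Sema7a probe also rose in both tumors (adjusted p = 0.000229 and 0.0012).

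The plexins that receive these ligands did not all move with them. Plxnd1 had GNP signals of 8.10, 8.03, 7.85 and 7.39, under every tumor. It rose 2.01-fold in Ptch+/- MBs (limma adjusted p = 0.00343) and 1.64-fold in NdpKO;Ptch+/- MBs (adjusted p = 0.0257), and a further probe rose in both (adjusted p = 0.00154 and 0.00649). Of 15 endothelial markers, 7 were lower in Ptch+/- MBs than in GNPs, where 10.9% of all genes were, and 1 was higher, where 10.3% were. The mean log2 signal of those above background was 7.40 to 7.88 in GNPs. In NdpKO;Ptch+/- MBs, whose mean signals overlapped with those of the GNPs, 2 endothelial markers were lower and 0 higher, where 7.98% and 7.69% of all genes were. The part of endothelial cells in the rise of Plxnd1 was not tested. Plxnc1, the plexin of Sema7a, overlapped among all groups, with means of 7.71, 8.11 and 7.76 in NdpKO;Ptch+/- MBs, Ptch+/- MBs and GNPs. Plxnb2 had means of 10.51, 11.05 and 10.52 and did not pass (adjusted p = 0.0631 for Ptch+/- MBs). Plxna2, a plexin for the transmembrane class 6 semaphorins, did not pass (adjusted p = 0.623 and 0.472), and nor did its ligand Sema6a (adjusted p = 0.119 and 0.503), although 1 dim Sema6a probe was lower in both tumors (adjusted p = 0.0151 and 0.016). Plxnb3 was close to background, with GNP signals of 4.47 to 5.24, and it passed as lower in both tumors (adjusted p = 0.0202 and 0.0106). All 4 NdpKO;Ptch+/- MBs were at background, at least 1.29-fold lower, and so were 3 of the 4 Ptch+/- MBs, which overlapped with the GNPs through replicate 4.

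Sema5a, a transmembrane semaphorin that can attract or repel axons, fell most of the semaphorins. Its GNP signals were 7.86, 8.24, 8.64 and 8.13. NdpKO;Ptch+/- MBs had 5.17, 4.56, 5.03 and 5.55, and Ptch+/- MBs 4.17, 6.85, 7.48 and 4.82. Every tumor was under every GNP sample, and the Ptch+/- MBs were the more spread, with replicates 2 and 3 closest to the GNPs and replicate 1 at background. Sema5a fell 8.80-fold in NdpKO;Ptch+/- MBs (limma adjusted p = 0.0123) and by a fitted 5.24-fold in Ptch+/- MBs (adjusted p = 0.0338), and a further probe fell in both (adjusted p = 0.000143 and 0.000278). The call in Ptch+/- MBs is lost when any of 7 single arrays is left out (adjusted p up to 0.0837): NdpKO;Ptch+/- replicate 1, Ptch+/- replicates 1 and 4, or any GNP sample.

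Sema3a, a secreted repellent, was at background in all 8 tumors and in GNPs had 6.52, 6.58, 4.62 and 4.93. It was at least 2.24-fold lower in both tumors by these means, and passed in Ptch+/- MBs (limma adjusted p = 0.0418) but not in NdpKO;Ptch+/- MBs (adjusted p = 0.0541). With 1 array left out, the call in Ptch+/- MBs is lost in 10 of 12 fits (adjusted p up to 0.101), all but those without GNP replicate 3 or 4. The transmembrane semaphorins Sema4a and Sema4f passed only in NdpKO;Ptch+/- MBs, where they fell 2.14-fold (adjusted p = 0.0109) and 2.70-fold (adjusted p = 0.0181). Sema4a had GNP signals of 7.51, 7.85, 8.12 and 7.93 and NdpKO;Ptch+/- signals of 6.54, 6.70, 6.54 and 7.23. For Sema4f they were 9.44, 9.29, 9.17 and 9.21 in GNPs and 7.29, 7.58, 7.94 and 8.56 in NdpKO;Ptch+/- MBs, and the call is lost without NdpKO;Ptch+/- replicate 1 or GNP replicate 1 (adjusted p up to 0.0528). A dimmer Sema4f probe also passed in NdpKO;Ptch+/- MBs (adjusted p = 0.0241). As given above, neither gene passed between the tumors.

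**Figure D3:**
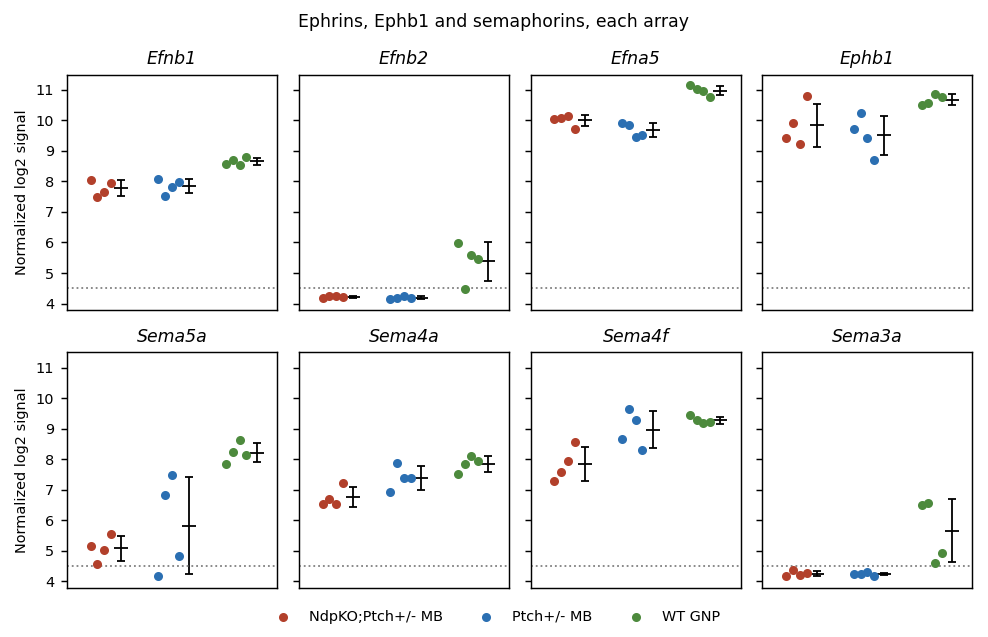
Normalized log2 signal of ephrins, the receptor Ephb1 and semaphorins, 1 point per array, with the mean and SD of each group beside it and the background limit dotted. Efnb1, Efna5 and Sema5a are lower in all 8 tumors than in any WT GNP sample, and the GNP values of Sema3a fall into a higher and a lower pair.

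Of the 8 ephrins, 4 were lower in Ptch+/- MBs, where 10.9% of all genes were. In NdpKO;Ptch+/- MBs 3 were lower, where 7.98% of all genes were, and none was higher in either tumor. Efna5, an anchored ligand of EphA receptors, stood at 11.15, 11.02, 10.95 and 10.78 in GNPs. It stood at 9.92, 9.85, 9.45 and 9.52 in Ptch+/- MBs and at 10.06, 10.09, 10.13 and 9.71 in NdpKO;Ptch+/- MBs. The tumors did not overlap with the GNPs, and Efna5 fell 2.44-fold (limma adjusted p = 0.000176) and 1.97-fold (adjusted p = 0.00122). Efnb1, a transmembrane ligand of EphB receptors, fell 1.74-fold (adjusted p = 0.00498) and 1.83-fold (adjusted p = 0.00428), from 8.53 to 8.80 in GNPs to 7.49 to 8.09 over the 8 tumors.

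Efnb2, which in vessels marks arteries, was at background in all 8 tumors and in GNPs had 5.97, 4.48, 5.60 and 5.46. It was at least 1.84-fold lower in both (limma adjusted p = 0.0103 for Ptch+/- MBs and 0.0147 for NdpKO;Ptch+/- MBs). Efna1 was near background, at 4.95, 5.54, 4.47 and 4.89 in GNPs, and at least 1.38-fold lower in Ptch+/- MBs (adjusted p = 0.0258). The Efna1 call is lost in 5 fits with 1 array left out, those without Ptch+/- replicate 2, 3 or 4 or GNP replicate 1 or 4 (adjusted p up to 0.063).

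The Eph receptors held 1 call among 12 members in each tumor by their brightest probes, that of Epha6 at background. Of all genes, 10.9% and 7.98% were lower. Only 4 of 9 EphA and 1 of 3 EphB receptors were above background on any array, beside 3 of 5 ephrin-A and 2 of 3 ephrin-B ligands. A dimmer probe of Epha7, above background in all 4 GNPs and in no tumor, was at least 1.48-fold lower in both and passed in Ptch+/- MBs (limma adjusted p = 0.0386, and 0.0638 in NdpKO;Ptch+/- MBs), while the brightest had means of 6.47, 5.33 and 5.47 in NdpKO;Ptch+/- MBs, Ptch+/- MBs and GNPs. A probe of Ephb1 that was above background in 1 GNP sample alone also passed as lower in both tumors (adjusted p = 0.0308 and 0.0359). Ephb1, a receptor of the B ephrins, had GNP signals of 10.50 to 10.88 and tumor signals of 8.71 to 10.81, and did not pass (limma adjusted p = 0.0678 for Ptch+/- MBs and 0.213 for NdpKO;Ptch+/- MBs). Epha3, a receptor of the A ephrins, varied more between tumors of 1 genotype than any difference between groups, with 5.83, 10.56, 10.15 and 8.33 in Ptch+/- MBs. In NdpKO;Ptch+/- MBs it had 9.50, 9.94, 6.24 and 8.87, and in GNPs 8.63, 8.72, 7.68 and 8.74. Epha5 was above background in GNP replicates 1 and 2 alone, at 5.40 and 5.43. Epha2 was above it in Ptch+/- replicate 4 alone, at 5.67. Whether ligands and receptors differed in their share of calls was not tested.

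In the Slit system the ligand Slit2 was lower in both tumors, while the receptor Robo1 was not by its brightest probe. Of the 4 probes of Robo1, 3 were under background on all arrays, and the probes of the receptor Robo2 disagreed, as given below. Slit2, the secreted repellent, had GNP signals of 7.47, 7.82, 6.85 and 6.54. All 4 Ptch+/- MBs were at background, and NdpKO;Ptch+/- MBs had 4.52, 5.36, 4.32 and 4.30, with replicates 1 and 2 just above it. By this probe, the only one of 7 that rose above background, Slit2 was at least 6.37-fold lower in Ptch+/- MBs (limma adjusted p = 0.000179) and had means of 7.17 in GNPs and 4.62 in NdpKO;Ptch+/- MBs (adjusted p = 0.000601). Robo1, bright in all samples, had GNP signals of 10.79, 10.66, 10.07 and 10.40 and rose 1.65-fold in Ptch+/- MBs, which were all above the GNPs, at an adjusted p of 0.0499. That call is lost in 8 of the 12 fits without 1 array (adjusted p up to 0.121): without NdpKO;Ptch+/- replicate 3 or 4, Ptch+/- replicate 1, 3 or 4, or GNP replicate 2, 3 or 4. In NdpKO;Ptch+/- MBs Robo1 differed from GNPs by -0.19 (adjusted p = 0.653).

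Of the other members above background, Sema4b was bright and even, at 10.57 to 11.33 over the 12 arrays. Sema6d, a class 6 semaphorin, had GNP signals of 8.91 to 9.19 and did not pass (limma adjusted p = 0.0516 for Ptch+/- MBs and 0.146 for NdpKO;Ptch+/- MBs), and nor did Sema4g (adjusted p = 0.0935 and 0.191) or Sema6b (adjusted p = 0.521 and 0.226). Nrp1 was higher than in GNPs by 0.62 and 0.66 on the log2 scale and did not pass (adjusted p = 0.102 and 0.104). Plxnb1 and Sema6c were above background in 2 tumors and 1 tumor, and at background in all GNPs.

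Probes of Robo2 disagreed. Its brightest probe had means of 7.95, 8.28 and 8.07 in NdpKO;Ptch+/- MBs, Ptch+/- MBs and GNPs and did not pass. A dimmer probe to the same RefSeq transcript was lower in both tumors, with means of 5.09, 5.40 and 7.07 (limma adjusted p = 0.00216 and 0.00408 in the same order of tumors), and another passed in NdpKO;Ptch+/- MBs alone (adjusted p = 0.0139, and 0.0739 in Ptch+/- MBs). No direction is given for Robo2.

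**Figure D4:**
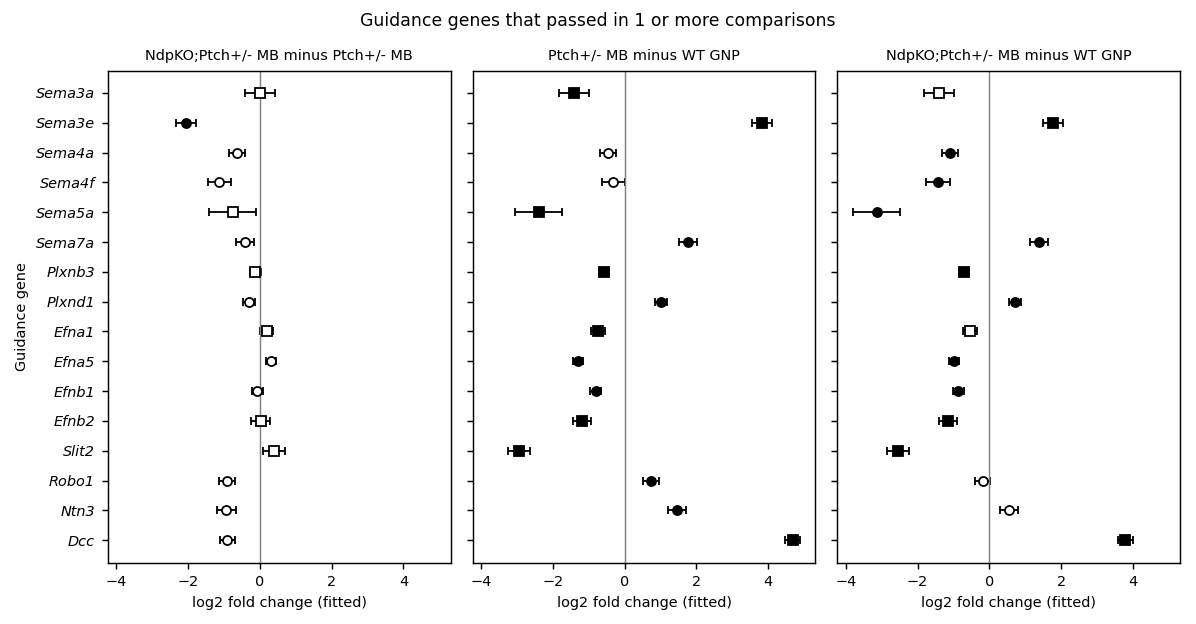
Fitted log2 fold change with its standard error for the 16 guidance genes above background that passed in 1 or more of the 3 comparisons. Filled symbols passed (adjusted p under 0.05), and squares mark genes with arrays under the background limit in a group compared, whose fitted value is not exact. In the panel of the tumor genotypes Sema3e alone is filled.

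Other genes of these pathways were read from 3 lists. Of 14 further partners of netrins, Slits and repulsive cues, 0 passed between the tumors, 4 were higher and 3 lower in Ptch+/- MBs than in GNPs, and 3 were higher and 2 lower in NdpKO;Ptch+/- MBs. Of 7 co-receptors of the L1 and contactin families, 0 passed between the tumors, and Chl1, Cntn1 and Nrcam were lower in both tumors than in GNPs. Of 36 cytoplasmic effectors with a probe, 0 passed between the tumors, 8 were higher and 5 lower in Ptch+/- MBs, and 5 were higher and 6 lower in NdpKO;Ptch+/- MBs. Against GNPs, 10.3% of all genes were higher and 10.9% lower in Ptch+/- MBs, and 7.69% higher and 7.98% lower in NdpKO;Ptch+/- MBs. Between the tumors, an unadjusted p under 0.05 was reached by 2 of the further partners, both lower in NdpKO;Ptch+/- MBs, by 0 of the co-receptors and by 11 of the effectors, 5 higher and 6 lower, where 8.52% of all genes were higher and 7.91% lower.

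The effector with the smallest p was Rgs3, a regulator that links ephrin-B signalling to chemokine receptors in cerebellar granule cells. It had GNP signals of 8.17, 8.28, 7.75 and 7.82 and was at background in all 8 tumors, at least 11.4-fold lower in both (limma adjusted p = 1.44e-08 for Ptch+/- MBs and 1.57e-08 for NdpKO;Ptch+/- MBs). Mical1, an oxidase that carries the plexin signal to actin, had GNP signals of 6.23, 6.49, 6.03 and 5.71. It rose 9.75-fold in Ptch+/- MBs (adjusted p = 2.25e-05) and 6.62-fold in NdpKO;Ptch+/- MBs (adjusted p = 0.000104). Pak3, a kinase downstream of Rac, rose 2.24-fold and 2.55-fold (adjusted p = 1.54e-05 and 6.82e-06), and Trio, an exchange factor downstream of Dcc, 1.54-fold and 1.32-fold (adjusted p = 0.00106 and 0.0139). Dpysl4, of the family of collapsin response mediators, rose 1.64-fold (adjusted p = 0.00478) and 2.20-fold (adjusted p = 0.000472).

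Markers of cell types moved with the groups. The GNP fraction held progenitor markers, with Barhl1 at 11.07 ± 0.05 and Zic1 at 14.12 ± 0.18 (SD, n = 4), while the probes of Atoh1, Mycn and Gli1 were under background on all 12 arrays. It also held markers of other cerebellar cells. Of 10 oligodendrocyte markers 6 were lower in each tumor than in GNPs and 1 was higher, and the mean log2 signal of the 9 above background was 8.78 to 10.2 in GNPs, 6.67 to 7.34 in Ptch+/- MBs and 7.03 to 7.59 in NdpKO;Ptch+/- MBs. The myelin gene Mag stood at 11.32 in GNPs, 4.29 in Ptch+/- MBs and 4.63 in NdpKO;Ptch+/- MBs, and the myelin gene Mog at 4.28 in GNP replicate 1 and 6.93 to 8.48 in the others.

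Of 9 markers of Purkinje cells and interneurons, 5 were lower in each tumor than in GNPs, and the mean log2 signal of the 5 above background was 9.84, 10.2, 9.14 and 9.12 in GNPs, 4.94 to 7.06 in Ptch+/- MBs and 5.51 to 7.31 in NdpKO;Ptch+/- MBs. Calb1, Pcp4, Car8 and Pax2 were under background on all arrays. GNP replicates 1 and 2 were thus the higher pair for this list. They were also the higher pair for Epha5 and for Slit2, Sema3a, Sema4f, Efna5 and Efna1, which were lower in 1 or both tumors. The same held for Plxnd1, Robo1 and Ntn3, which rose in Ptch+/- MBs. For Sema5a, Sema4a, Efnb1, Efnb2 and Plxnb3, which were lower in 1 or both tumors, they were not, and nor were they for Sema7a, which rose. Of 10 microglial markers 6 were higher in each tumor, and the mean of the 8 above background was 5.49 to 5.95 in GNPs and 7.91 to 9.13 over the tumors. The part of these cell types in the differences of Slit2, Sema3a, Sema5a, the ephrins and the other members between tumors and GNPs was not tested.

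**Figure D5:**
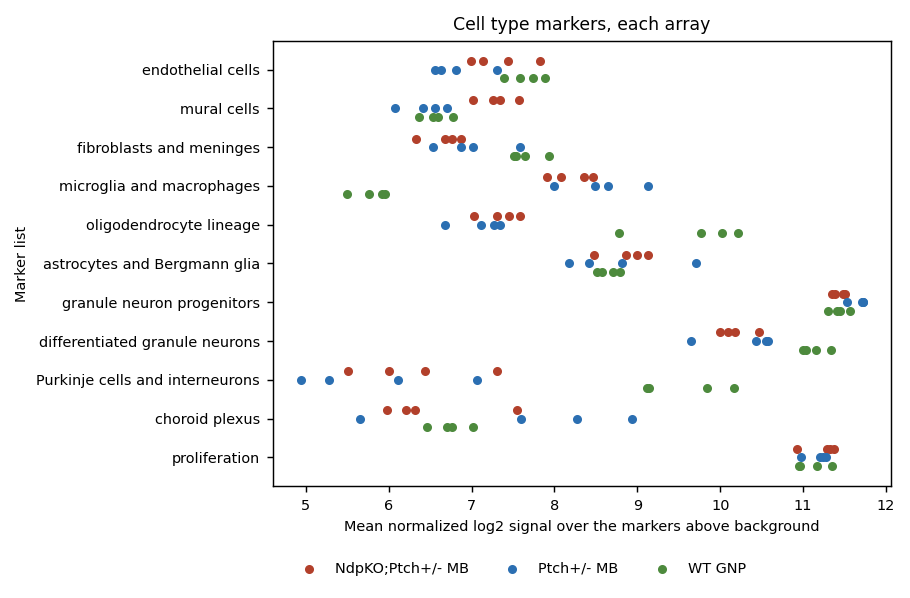
Mean normalized log2 signal over the markers above background of each of 11 marker lists, 1 point per array. The 4 WT GNP samples are above all tumors for oligodendrocyte markers and for Purkinje cell and interneuron markers, and under all tumors for microglia and macrophages.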

How the data were processed

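Expression of 59 guidance genes was measured in 4 NdpKO;Ptch+/- MBs, 4 Ptch+/- MBs and 4 WT GNP samples. The deposited table holds log2 signals. The authors had passed BeadStudio output through neqc in limma, which corrects background on negative control probes and then normalizes quantiles, and had annotated probes with illuminaMousev2.db. Their limma version was not given in the sources used here. Quantile normalization gives every array the same median, so differences in general level between arrays cannot be seen. The number of arrays limits the precision.

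All else was computed here in R 4.3.3 with limma 3.58.1. The platform annotation gave 1 symbol to 34885 probes, several to 18 and none to 10378. A model with 1 mean per group was fitted to all 12 arrays (lmFit and eBayes), and Benjamini-Hochberg adjustment ran over all 45281 probes, with a threshold of 0.05. A fold is "at least" a value where the dimmer group was under 4.5 on every array, and is then the mean of the brighter group against that limit. Genes named are those that passed between the tumors, up to 8 rises and 8 falls without overlap in each tumor against GNPs, the member with the smallest p between the tumors in each role class, the partners with the smallest p, up to 4 in each comparison, and a few known from the cerebellum. Others are named to complete a count or because their probes or samples disagreed, a choice made with their values known. The members, lists, rule and limit were chosen with earlier results of these data known. The script was tested on simulated data.

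Alternatives were cyclic loess normalization, dim probes left out, an intensity trend with a robust prior, the mean of all probes of a gene, only the groups compared, a replicate block, a threshold of 0.01 and each array left out in turn.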

Additional observations from a re-analysis of the deposited data

Results flagged for a closer look

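In 2 of the 54 groups of 4 arrays tested, 1 sample stood apart from the other 3 by Dixon's test, where chance gives about 1 group in 20. Plxnb3 in Ptch+/- MB replicate 4 was at 4.53, the only array of its group above background, and the nearest of the others was at 4.24 (gap over range 0.85). Efna5 in NdpKO;Ptch+/- MB replicate 4 was at 9.71, under the other 3, of which the nearest was at 10.06 (gap over range 0.836). In both cases the group's whole range was small, 0.338 and 0.423 on the log2 scale.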

How the results depend on the processing

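Of the members named by the rule above, none that passed in the reported fit changed direction under any alternative. Epha6, at background, was not among these members. Of the 78 fold changes of named members, 13 changed sign between settings, 0 of which had passed, among them Nrp1 between the tumors (-0.15 to 0.22), Plxna2 between the tumors (-0.63 to 0.11) and in Ptch+/- MBs against GNPs (-0.67 to 0.06), Plxnb2 in NdpKO;Ptch+/- MBs (-0.11 to 0.08) and Sema6a in Ptch+/- MBs (-0.32 to 0.69) and NdpKO;Ptch+/- MBs (-0.43 to 0.39). The number of members higher between the tumors was 0 in all of them. The number lower between the tumors, reported as 1, was 4 with dim probes left out (Sema3e, Dcc, Robo1 and Ntn3), 3 with the intensity trend and robust prior (Sema3e, Dcc and Robo1), 0 with only the tumors fitted, and 1 to 2 with an array left out, the second being Ntn3 without NdpKO;Ptch+/- replicate 1 and Dcc without Ptch+/- replicate 4. Against GNPs, the 9 lower members in Ptch+/- MBs became 5 with only the groups compared and 5 to 9 with an array left out, and the higher members became 5 to 7. In NdpKO;Ptch+/- MBs the lower members were 7 to 10 and the higher 3 to 4 with an array left out. At a threshold of 0.01 the lower members were 3 in each tumor. With only the groups compared, Sema3a, Sema5a, Plxnb3, Efna1 and Robo1 in Ptch+/- MBs (adjusted p from 0.0694 to 0.113) and Plxnd1 and Efnb2 in NdpKO;Ptch+/- MBs (0.0701 and 0.0577) no longer passed, and nor did Robo1 with cyclic loess (0.0518). With the mean of all probes, Sema3e no longer passed in NdpKO;Ptch+/- MBs against GNPs (adjusted p = 0.0856). Plxnb3 in Ptch+/- MBs lost its call in 4 fits without an array (Ptch+/- replicate 1, 2 or 3, or GNP replicate 2, adjusted p up to 0.0554), as did Plxnd1 in NdpKO;Ptch+/- MBs (NdpKO;Ptch+/- replicate 1, 3 or 4, or GNP replicate 3, up to 0.0718).

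With a replicate block the lower members in Ptch+/- MBs were 6, and Sema3a and Sema5a in Ptch+/- MBs and Sema4f and Plxnd1 in NdpKO;Ptch+/- MBs no longer passed (adjusted p = 0.0633, 0.0557, 0.0593 and 0.0875). The numbers do not pair the samples: deviations of same-numbered samples correlated at -0.178 to 0.107 over 17180 probes.

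A signal near 4.1 is the floor of these values, so genes under 4.5 could have differed without being seen, and a probe that gave no signal does not show that its gene was silent.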

Other observations

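The spread between tumors of 1 genotype was wide in the netrin receptor Unc5c, which mediates repulsion. It stood at 11.51, 11.15, 11.52 and 11.64 in GNPs, at 7.06, 9.49, 9.77 and 4.54 in Ptch+/- MBs and at 7.04, 7.41, 8.31 and 9.15 in NdpKO;Ptch+/- MBs. All tumors were under all GNPs, and Unc5c passed in Ptch+/- MBs (limma adjusted p = 0.0348) but not in NdpKO;Ptch+/- MBs (adjusted p = 0.0587). Draxin, a secreted repellent that binds Dcc, stood at 11.18 to 11.84 in GNPs and at 12.51 to 13.06 over the 8 tumors, and rose 2.19-fold in Ptch+/- MBs (adjusted p = 0.00208) and 2.28-fold in NdpKO;Ptch+/- MBs (adjusted p = 0.00216). Neo1, the receptor related to Dcc, fell 1.43-fold (adjusted p = 0.00741) and 1.35-fold (adjusted p = 0.0232). Both genes were chosen after their values were seen.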
